A study of Mus musculus with 18 samples.

Results

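The endoplasmic reticulum (ER) chaperones followed here were 10 genes, Hspa5, Hyou1, Dnajb9, Dnajc3, Sdf2l1, Manf, Creld2, Hsp90b1, Pdia4 and Calr, taken by name from the 35275 genes of the deposited count table. All 10 were found and all 10 passed the filter on low counts in every comparison. RNA was sequenced from livers of mice lacking NRF2 (KO) and of wild-type mice (WT) that had received diethylnitrosamine (DEN), a liver carcinogen activated in hepatocytes. Livers were taken 2 days after DEN (2D), 4 weeks after it (4W) or 36 weeks after it (36W). The 6 groups, KO and WT at each time, had 3 libraries each, which made 18 in all. NRF2 is the transcription factor encoded by Nfe2l2 and drives antioxidant and detoxification genes. Every group received DEN, so no comparison with untreated liver was made, and both genotypes had a mixed B6;129P2 background. The labels do not describe the KO allele. They give liver tumor as the source at 2D and liver tissue at 4W and 36W, while the text on RNA extraction speaks of tumors for every library. The library titles hold a code that begins with B at 2D and with A at 4W and 36W, in both genotypes. Comparisons of 2D with a later time therefore cannot separate time from this code, and no comparison of times separates time after DEN from age. The part of either in the changes between times was not tested.

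ER chaperones bind newly made secreted and membrane proteins and hold them until they fold, and disulfide isomerases and lectins of the same compartment complete the folding. When unfolded protein builds up, the sensors encoded by Ern1, Eif2ak3 and Atf6 start the unfolded protein response, in which Xbp1, Atf4 and cleaved Atf6 raise the transcription of chaperone genes. Hepatocytes secrete most plasma proteins and hold an extensive ER, and in mouse liver chaperone genes are known to be induced by refeeding as well as by ER stress.

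The ER stress response element (ERSE), the site through which Atf6 acts on chaperone promoters, is shown because several of the 10 genes hold it. It was searched as CCAAT, 9 bases of any kind, then CCACG, on both strands of RefSeq promoters of build GRCm38.p6, each 300 bases long with 250 bases before the start of the transcript and 50 after. Of the 10 genes 8 had a promoter entry, and Hyou1 and Manf had none. The ERSE was present in 5 of these 8 promoters, against 39 of 32851 promoters in all (0.119%). As the element is known from chaperone promoters, this count is a description and no test of enrichment. In the sites below, read 5′ to 3′ on the strand that holds the element, capitals mark CCAAT and CCACG.
Hspa5: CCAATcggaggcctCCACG
Creld2: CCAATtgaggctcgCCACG
Hsp90b1, first site: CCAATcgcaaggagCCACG
Hsp90b1, second site: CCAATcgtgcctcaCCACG
Calr: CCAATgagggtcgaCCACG
Dnajc3: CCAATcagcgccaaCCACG

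The Hspa5 site lay 65 to 47 bases before the start on the strand of the gene, and that of Dnajc3 105 to 87 bases before it on the same strand. Creld2 held its site 126 to 108 bases before the start and Calr 162 to 144 bases before it, both on the opposite strand. Hsp90b1 was the only one of the 8 with 2 exact matches, 212 to 194 bases before the start on its own strand and 107 to 89 bases before it on the opposite strand. Stretches that differ from CCAAT or CCACG by a base were not counted. The 130 bases before the RefSeq start of Hspa5 (chr2:34771960-34772089, GRCm38.p6, plus strand) are given with the element in capitals, as an example of its setting. The Hspa5 row of the count table begins at 34771970, so most of this stretch, with the whole element, lies within the gene as the table draws it.
Hspa5, upstream: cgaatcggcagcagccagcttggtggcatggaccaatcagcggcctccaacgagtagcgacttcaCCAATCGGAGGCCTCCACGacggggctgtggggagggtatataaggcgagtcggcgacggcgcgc

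Other elements were counted in the same promoters. The second form of the element, ATTGG, 1 base and CCACG, was in none of the 8 promoters and in 0.0365% of all, and TGACGTGG, the core bound by spliced Xbp1, was in none of the 8 and in 0.676% of all. CCACG alone, which is part of both forms of the ERSE, was in 8 of 8 promoters and in 32.8% of all. TGAC, 3 bases of any kind and GC, the core of the antioxidant response element to which NRF2 binds, was found for Calr and Sdf2l1, 2 of 8, and in 12.4% of all promoters. A match is a run of letters and does not show that a factor binds there.

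Counts per library summed to between 15.3 and 24.2 M. Levels are given as CPM, counts scaled to a common library size, with TMM factors over the 18 libraries. A library whose count is 0 could still hold up to 3 counts, which is 0.124 to 0.196 CPM, far under any chaperone. Nqo1, a standard NRF2 target, ranged over 1.37 to 2.27 CPM in KO and 14.2 to 29.1 CPM in WT at 2D, over 2.11 to 4.17 CPM in KO and 11.2 to 17.5 CPM in WT at 4W, and over 0.752 to 6.4 CPM in KO and 22.6 to 103 CPM in WT at 36W, and so went with the labels in all 18 libraries. Nfe2l2 itself was still counted in KO, at 43.2 to 67.8 CPM in KO and 70.2 to 76.1 CPM in WT at 2D, 54 to 56.2 CPM in KO and 90.0 to 109 CPM in WT at 4W, and 37.7 to 43 CPM in KO and 105 to 127 CPM in WT at 36W. As the deleted part is not described, these reads cannot be placed inside or outside it. Hepatocyte markers such as Alb were abundant in every library. At 2D the third WT library differed from the other 2 in WT, with a chi-square per gene of 76.1 and 74 against 17.5 between those 2, and the 3 WT libraries of 36W differed more from each other (90.2 to 174). The labels do not say whether each library came from its own animal, and p-values refer only to the spread among these libraries.

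Per kilobase of gene length, the medians over the 18 libraries placed Calr at 453 CPM per kb and Hspa5 at 378 CPM per kb as the 2 most abundant of the 10. Hsp90b1 followed at 168 and Pdia4 at 108 CPM per kb, then Dnajc3 at 57.8 CPM per kb. The other 5, Manf, Hyou1, Creld2, Dnajb9 and Sdf2l1, lay between 29.6 and 39.9 CPM per kb. The genes that ranged most between libraries were among these 5 scarcer ones. The highest library was 11.9 times the lowest for Creld2, 9.49 times for Sdf2l1 and 8.69 times for Manf, against 2.67 times for Calr and 2.8 times for Hsp90b1.

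The group with the lowest mean level was WT at 2D for 6 genes and KO at 4W for the other 4, which were Hspa5, Hyou1, Manf and Creld2. The highest mean was that of KO at 36W for 6 genes, of WT at 36W for Dnajb9 and Dnajc3, and of WT at 4W for Hyou1 and Calr. For Hspa5 the order by mean ran KO at 4W, WT at 2D, KO at 2D, WT at 4W, WT at 36W and KO at 36W, and KO at 4W overlapped with WT at 2D, as did WT at 36W with both of its neighbours in that order. KO at 2D overlapped with neither of its neighbours. Manf and Creld2 were lower in every KO library of 4W than in any other group.

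**Figure D1:**
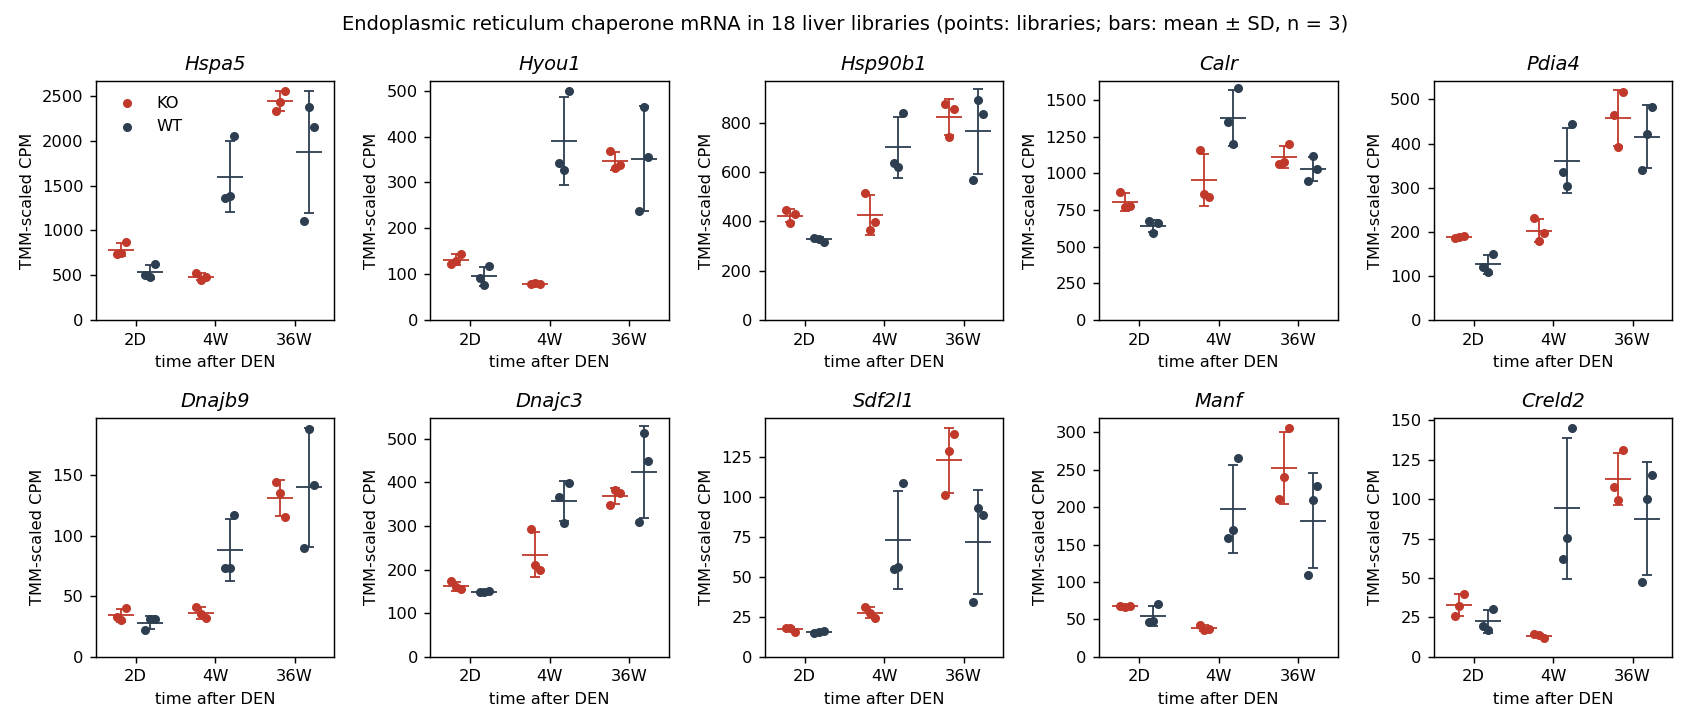
TMM-scaled CPM of each ER chaperone (y axis, from 0) by time after DEN (x axis), KO in red left of WT in dark blue, with 1 point per library and bars for mean and SD over 3 libraries. At 4W the KO points lie below all WT points for each of the 10 genes, as for Hyou1 with 78.9 to 80.4 CPM in KO and 328 to 499.6 CPM in WT.

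At 4W the ER chaperones were lower in KO than in WT liver. Of the 10 genes 8 fell in KO at an adjusted p under 0.05 (edgeR quasi-likelihood test, Benjamini-Hochberg over 13394 genes), where 4.13% of all genes tested were called lower. The median log2 fold change of the 10, KO over WT, was -1.35, against 0.01 over all genes tested. In each of the 10 genes all 3 KO libraries were below all 3 WT libraries, which held in that direction for 14.7% of genes tested. In these bulk samples, fewer cells of a type and less RNA per cell cannot be told apart.

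Hspa5 (chr2:34771970-34776531, mm10) encodes BiP, the ER member of the Hsp70 family, which binds unfolded chains and keeps the stress sensors inactive. It had 531, 452 and 476 CPM in the KO libraries of 4W, against 1360.1, 1385 and 2055 CPM in the WT libraries. The third WT library was the highest, and the lowest WT library still exceeded the highest KO library by more than the whole KO range. Hspa5 fell by 1.73 on the log2 scale (SE 0.17), 3.31-fold lower in KO, with an edgeR adjusted p of 0.00127.

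Hyou1 (chr9:44379490-44392369), a large Hsp70-related protein, is the nucleotide exchange factor that lets BiP release its client. Its 3 KO libraries of 4W were nearly equal, at 78.9, 80.4 and 79.4 CPM, against 343, 328 and 499.6 CPM in WT. With -2.30 (SE 0.16) on the log2 scale, 4.93-fold lower in KO, it had the smallest adjusted p of the 10 genes (edgeR, 0.000187).

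Dnajb9 and Dnajc3 encode J-domain partners of BiP, which stimulate its ATPase. Dnajb9 (chr12:44205897-44210068) had 41.4, 35.2 and 31.7 CPM in KO, against 73.2, 72.9 and 117 CPM in WT at 4W, and fell by 1.29 (SE 0.19, edgeR adjusted p 0.00631). Dnajc3 (chr14:118937932-118981702) had 293, 209.7 and 199 CPM in KO, against 366, 307 and 399 CPM in WT. The first KO library came close to the second WT library. Its log2 fold change of -0.62 (SE 0.16) did not pass, with an edgeR adjusted p of 0.0573, while DESeq2 gave 0.00352.

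Sdf2l1 (chr16:17130138-17132383), which works with J-domain proteins to keep BiP clients soluble, had 31.3, 27.6 and 24.2 CPM in KO, against 54.9, 56.1 and 109 CPM in WT. The third WT library was far above the other 2, and Sdf2l1 fell by 1.41 (SE 0.25, edgeR adjusted p 0.0132). Manf (chr9:106838312-106891979) encodes a BiP-binding protein that is also secreted as a trophic factor. It had 42.9, 35.2 and 37.2 CPM in KO, against 159, 170.1 and 266 CPM in WT, and was 5.19-fold lower in KO, by 2.38 (SE 0.20, edgeR adjusted p 0.00045) on the log2 scale. The span of Manf shares exons with Dcaf1 and 4930524O07Rik on the other strand and with Rbm15b on its own. As the strand setting of the counting is not stated, its counts are less certain than those of the rest, and so are those of Hsp90b1, which overlaps 1810014B01Rik and Gm15344.

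Creld2 (chr15:88819646-88826681), an ER-stress inducible protein with EGF-like domains that interacts with folding clients and is partly secreted, differed most. The KO libraries of 4W had 14.4, 14.1 and 12.2 CPM, against 62.1, 75.3 and 145 CPM in WT, with the third WT library well above the other 2. Creld2 was 6.98-fold lower in KO, with a log2 fold change of -2.80 (SE 0.29, edgeR adjusted p 0.00153).

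The chaperone of the Hsp90 family, the disulfide isomerase and the lectin moved less. Hsp90b1 (chr10:86690209-86705509), which folds receptors such as integrins and Toll-like receptors, had 516, 365 and 396 CPM in KO, against 637, 620.2 and 839 CPM in WT, and fell by 0.72 (SE 0.16, edgeR adjusted p 0.0343). Without the second or the third KO library of 4W, or the second or the third WT library, that call was lost (edgeR adjusted p 0.0953, 0.0916, 0.068 and 0.109). Pdia4 (chr6:47796142-47813512), a disulfide isomerase, had 230.5, 179.9 and 197 CPM in KO, against 335, 304 and 444 CPM in WT, and fell by 0.84 (SE 0.16, edgeR adjusted p 0.0151). Calr (chr8:84841850-84846934), the calcium-binding lectin calreticulin, had 1160.4, 862 and 842 CPM in KO, against 1354, 1203 and 1581 CPM in WT. Its log2 fold change of -0.54 (SE 0.16) was not called by edgeR (adjusted p 0.0799) but was by DESeq2 (0.0085). Without the first KO library of 4W, the highest in KO for both genes, edgeR called Calr (adjusted p 0.0312) and Dnajc3 (0.0177). The sizes of the 10 changes were not tested against each other.

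The changes at 4W of genes with and without the ERSE spanned overlapping ranges. Among the 5 genes that hold it the log2 fold changes at 4W were -2.80 for Creld2, -1.73 for Hspa5, -0.72 for Hsp90b1, -0.62 for Dnajc3 and -0.54 for Calr. The 3 genes with a promoter entry and no match, Sdf2l1, Dnajb9 and Pdia4, had -1.41, -1.29 and -0.84. Of 32 other genes with the element in a promoter 14 were tested at 4W, with a median of -0.28. The 2 of them called, both lower, were Syvn1 (-1.87), an ER ubiquitin ligase, and Alg12 (-1.39), a mannosyltransferase of N-glycan assembly.

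At 2D no chaperone passed the threshold between KO and WT. None was called by edgeR, where 0.165% of 13913 genes were called in either direction. At an unadjusted p under 0.05 there were 5 of the 10, among 2236 genes in all (16.1%). DESeq2 called 3 of the 10 higher, with 3.14% of all genes, and limma-voom called 0. All 10 log2 fold changes were above 0, from 0.10 for Dnajc3 to 0.58 for Pdia4, with a median of 0.34 against -0.04 over all genes tested. Hspa5 had 737, 749.7 and 873 CPM in KO, against 499.8, 477 and 627 CPM in WT (log2 fold change 0.55, SE 0.14, edgeR adjusted p 0.146). Pdia4 had 187, 189 and 191 CPM in KO, against 119.6, 108 and 149 CPM in WT (0.58, SE 0.13, edgeR adjusted p 0.115).

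In both genes every KO library of 2D was above every WT library. That was so for 6 of the 10, the other 4 being Hyou1, Hsp90b1, Calr and Dnajc3, and for 12.9% of all genes tested. Hyou1 had 123, 129 and 145 CPM in KO, against 90.9, 75.5 and 118 CPM in WT. Hsp90b1 had 446, 395 and 428 CPM in KO, against 333, 330.1 and 318 CPM in WT. The remaining genes overlapped, as did Manf with 67.3, 67 and 67.6 CPM in KO, against 47.1, 47.6 and 70.1 CPM in WT, where the third WT library was above all KO libraries.

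The third WT library of 2D, which stood apart from its group over all genes, was the highest of the 3 WT libraries for Hspa5, Hyou1, Manf, Creld2, Pdia4, Sdf2l1 and Dnajc3. Without it 5 of the 10 rose in KO, where 6.68% of all genes tested were called higher. They were Pdia4 (log2 fold change 0.71, edgeR adjusted p 0.00504), Hspa5 (0.67, 0.0138), Hyou1 (0.65, 0.014), Manf (0.49, 0.0144) and Creld2 (0.83, 0.021). Stellate and fibroblast markers summed to 917 to 1321 CPM in KO and 844 to 5535 CPM in WT at 2D, and the 7 cholangiocyte markers to 109 to 134 CPM in KO and 102 to 456 CPM in WT, and the third WT library gave the highest sum of both. Plasma and B cell markers summed to 30.7 to 40.7 CPM in KO and 13.4 to 24.5 CPM in WT, with 8 of 8 tested above 0, a median log2 fold change of 0.95 and 4 at an unadjusted p under 0.05. Endothelial markers summed to 277 to 405 CPM in KO and 445 to 520.3 CPM in WT, with 8 of 8 below 0, a median of -0.36 and 2 at an unadjusted p under 0.05. Hepatocyte markers summed to 99551 to 116485 CPM in KO and 80744 to 88689 CPM in WT, with 4 of 8 on each side of 0. Most of the hepatocyte sum was Alb. No gene of these 5 lists was called by edgeR, and only Tnfrsf17, a plasma cell gene, was at 0 in both groups. Their part in the 2D values was not tested.

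At 36W again none of the 10 was called, where 0.037% of 13516 genes were called in either direction by edgeR. Of the 10, 0 had an unadjusted p under 0.05, among 1617 genes in all. DESeq2 and limma-voom also called 0 of the 10. The log2 fold changes ran from -0.18 for Dnajc3 to 0.80 for Sdf2l1 (SE 0.36, edgeR adjusted p 0.433), with a median of 0.15 against 0.01 over all genes tested. Sdf2l1 was the one gene whose groups did not overlap, with 101, 129 and 139.6 CPM in KO, against 34.2, 93 and 88.6 CPM in WT, and 8.23% of genes tested were higher in KO in this way. Hspa5 had 2331, 2438 and 2553 CPM in KO, against 1105, 2380.2 and 2157 CPM in WT.

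Here the WT libraries spread widely and the KO libraries did not. The first WT library was the lowest of the 6 libraries for each of the 10 genes. Manf had 211, 240.2 and 306 CPM in KO, against 109, 209 and 228 CPM in WT. Hyou1 had 368, 331 and 338 CPM in KO, against 237, 464 and 356 CPM in WT, so that WT libraries lay on both sides of the KO libraries and the log2 fold change was 0.00 (SE 0.24). Plasma and B cell markers at 36W summed to 96.2 to 146 CPM in KO and 77.2 to 654 CPM in WT, and cholangiocyte markers to 721 to 1171 CPM in KO and 102 to 556 CPM in WT, with no gene of either list at 0. Most of the cholangiocyte sum was Spp1, a gene that other cell types also express, with 994, 677 and 1146 CPM in KO, against 202, 506 and 80.0 CPM in WT, while Sox9 averaged 29.9 CPM in KO and 28.1 CPM in WT. All 5 cholangiocyte markers tested were above 0, with a median log2 fold change of 1.83. By edgeR 3 of these 5 had an unadjusted p under 0.05, as had 12% of all genes tested, and none was called. Of 9 plasma and B cell markers tested 8 were below 0, with a median of -0.57 and 0 at an unadjusted p under 0.05. The part of both lists in the 36W values was not tested.

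**Figure D2:**
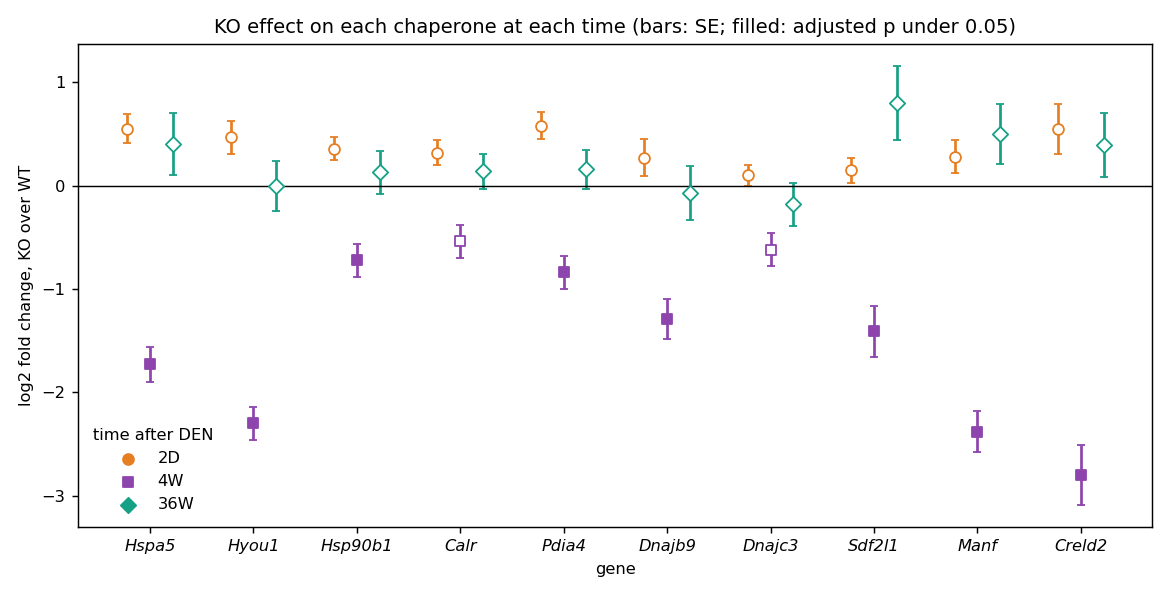
Log2 fold change, KO over WT (y axis), of each ER chaperone (x axis) at 2D (circles), 4W (squares) and 36W (diamonds), with bars for SE and filled symbols where the edgeR adjusted p was under 0.05. The 4W values lie from -2.80 (Creld2) to -0.54 (Calr), below 0 for all 10 genes, and the 2D values lie from 0.10 to 0.58.

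The KO effect itself differed between times. Between 4W and 2D it was lower at 4W for 7 of the 10 genes (one edgeR fit of the 18 libraries, Benjamini-Hochberg over 14877 genes), where 1.01% of all genes tested were called lower. Creld2 had a difference of -3.35 (SE 0.48, edgeR adjusted p 0.00311), Hyou1 of -2.77 (SE 0.31, 0.000574), Manf of -2.66 (SE 0.36, 0.00238) and Hspa5 of -2.28 (SE 0.33, 0.00311) on the log2 scale. These 4 genes, of which KO livers of 4W held the lowest mean, differed most. Dnajb9 (-1.56, edgeR adjusted p 0.0341), Pdia4 (-1.42, 0.00902) and Hsp90b1 (-1.09, 0.0393) also passed. Sdf2l1 (-1.57, 0.0856), Calr (-0.86, 0.0502) and Dnajc3 (-0.73, 0.157) did not. Of the 7 calls, that of Hsp90b1 was lost on leaving out any library of the 4 groups but the first KO library of 4W and the third WT library of 2D (edgeR adjusted p 0.053 to 0.113). That of Dnajb9 was lost on leaving out any but these and the first or the second WT library of 4W (0.0556 to 0.096). Calr was called without the first KO library of 4W (0.0237) or the third WT library of 2D (0.0386).

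Between 36W and 4W the KO effect was higher at 36W for 5 genes, where 0.282% of all genes tested were called higher. They were Creld2 (3.16, SE 0.47, edgeR adjusted p 0.00869), Manf (2.84, SE 0.36, 0.00332), Hyou1 (2.27, SE 0.31, 0.0047), Sdf2l1 (2.18, SE 0.43, 0.0362) and Hspa5 (2.09, SE 0.33, 0.0129). Dnajb9, Pdia4, Hsp90b1, Calr and Dnajc3 had differences of 1.19, 0.97, 0.82, 0.64 and 0.41 and were not called (edgeR adjusted p 0.0752 to 0.439), although DESeq2 called 9 of the 10 higher, with 2.41% of all genes. Without the third WT library of 4W, and likewise without the third KO library of 4W, 3 genes were called. Hspa5 (edgeR adjusted p 0.0504 and 0.0568) and Sdf2l1 (0.0929 and 0.0904) missed the threshold in both cases. Sdf2l1 also missed it without the first or the second KO library of 4W, the second WT library of 4W, or the second or the third KO library of 36W (edgeR adjusted p 0.0576 to 0.0916), while Pdia4 was called without the third WT library of 36W (0.0483) and Dnajb9 without the second (0.0282).

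Between 36W and 2D none of the 10 was called, with differences from -0.51 for Hyou1 to 0.61 for Sdf2l1, where 3.04% of all genes tested were called in either direction. At an unadjusted p under 0.05 there were 0 of 10, and leaving out each library in turn, DESeq2 and limma-voom also gave 0.

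Within WT liver all 10 genes rose at 4W against 2D, where 19.1% of all genes tested were called higher. Sdf2l1 had 54.9, 56.1 and 109 CPM at 4W, against 14.7, 15.3 and 16.3 CPM at 2D, and rose by 2.24 (SE 0.32, edgeR adjusted p 7.16e-05). Creld2 rose by 2.07, Hyou1 by 2.04, Manf by 1.85 and Dnajb9 by 1.64. The smallest of the 10 were Hsp90b1 with 1.09 (SE 0.18, edgeR adjusted p 0.000202) and Calr with 1.10. With library size alone as the scaling the median of all genes shifted by -0.28 in this comparison and by -0.20 in that of KO, and all 10 were still called higher in WT. They were also all called without the third WT library of 2D, which stood apart. Cell type markers moved over the same interval in WT, where 18.6% of all genes were called lower. Of 8 stellate and fibroblast markers 7 fell and 1 rose, with a median of -1.59 and sums of 489.8 to 627 CPM at 4W and 844 to 5535 CPM at 2D. Of 8 endothelial markers 5 fell, with a median of -0.64 and sums of 288 to 302 CPM at 4W and 445 to 520.3 CPM at 2D. Of 6 cholangiocyte markers tested 4 fell, with a median of -2.63 and sums of 105 to 124 CPM at 4W and 102 to 456 CPM at 2D. Of 8 hepatocyte markers 4 rose and 1 fell, with a median of 0.46 and sums of 94542 to 125068 CPM at 4W and 80744 to 88689 CPM at 2D. Alb made up most of the hepatocyte sums. No gene of these 4 lists was at 0 in either group, and their part in the rise of the chaperones was not tested. Age and the code in the library titles also differ or may differ between 2D and 4W, and their part was not tested.

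Within KO liver the same interval gave a mixed picture. At 4W against 2D Creld2 (-1.28, edgeR adjusted p 0.0121), Manf (-0.81, 0.0293), Hyou1 (-0.73, 0.0211) and Hspa5 (-0.69, 0.0388) fell, where 10.8% of all genes tested were called lower. Dnajc3 rose by 0.52 (edgeR adjusted p 0.0382), where 13.5% were called higher, but it lost that call in 5 of 7 other settings, down to 0.31 (edgeR adjusted p 0.158) with library size alone. Sdf2l1, Calr, Pdia4, Dnajb9 and Hsp90b1 had log2 fold changes of 0.68, 0.24, 0.10, 0.07 and 0.01 and were not called. These 5 calls depended on single libraries. Leaving out any one library of the 2 groups left 0 to 2 of them: 1, 2 and 2 without KO library 1, 2 or 3 of 4W, and 2, 2 and 0 without KO library 1, 2 or 3 of 2D.

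From 4W to 36W it was KO liver in which the chaperones were called. At 36W against 4W 9 of the 10 rose in KO, where 14.5% of all genes tested were called higher. Creld2 had 108, 99.6 and 131 CPM at 36W, against 14.4, 14.1 and 12.2 CPM at 4W, and was 8.34-fold higher (log2 3.06, SE 0.36, edgeR adjusted p 2.01e-05). Manf rose by 2.72, Hspa5 by 2.33, Sdf2l1 by 2.15, Hyou1 by 2.12, Dnajb9 by 1.86, Pdia4 by 1.18, Hsp90b1 by 0.95 and Dnajc3 by 0.66. Calr, at 0.22 (SE 0.14), was not called (edgeR adjusted p 0.272), and Dnajc3 was not called without the third KO library of 4W (0.054). Hepatocyte markers summed to 174475 to 202806 CPM at 36W and 111398 to 138157 CPM at 4W in KO, with 2 of 8 higher and 3 lower. Alb made up most of both sums. Plasma and B cell markers summed to 96.2 to 146 CPM at 36W and 22.5 to 45.4 CPM at 4W in KO, with 2 of 9 tested higher, none lower and Tnfrsf17 at 0 at 4W. Their part in these values was not tested. In WT none of the 10 was called at 36W against 4W by edgeR, where 21% of all genes tested were called in either direction, while 2 had an unadjusted p under 0.05, DESeq2 called 2 (24.4% of all genes) and limma-voom 1 (19.9%). The WT values ran from -0.42 for Calr (edgeR adjusted p 0.0502) to 0.67 for Dnajb9 (0.0579).

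The 10 genes varied together. Over the 45 pairs, Pearson's r of log2 CPM over the 18 libraries ran from 0.67 to 0.99 with a median of 0.91, and Calr had the lowest mean r with the others, 0.77. After the 6 group means were taken out, r ran from 0.46 to 0.93 with a median of 0.75. The points share their libraries, their depth and their scaling. These values are descriptions, given without the same values for other sets of genes.

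The shared movement showed within groups too. In the first WT library of 36W all 10 genes lay below their group mean, by 0.54 on average on the log2 scale and by 0.94 for Sdf2l1, and in the second WT library of 36W all 10 lay above it, by 0.31 on average. The third WT library of 4W had all 10 above, by 0.40 on average, and the second WT library of 4W had none above. Within a group the deviations of a gene cancel out, so libraries above and below the mean are not separate cases. The median SD of the 10 genes in log2 CPM was 0.15 in KO and 0.51 in WT at 36W, against 0.23 and 0.29 over all genes tested. At 4W it was 0.18 in KO and 0.33 in WT, against 0.21 and 0.20 over all genes tested, and at 2D 0.11 in KO and 0.22 in WT, against 0.18 and 0.25. By these medians the chaperones spread more than the usual gene in WT at 4W and 36W and less in KO at all 3 times, with no test of that difference. Single genes went the other way, as Hsp90b1 (0.26), Calr (0.26) and Dnajc3 (0.30) in KO at 4W. Calr (0.12) and Pdia4 (0.25) did so in WT at 36W. All genes tested include scarcer ones, whose counts vary more.

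**Figure D3:**
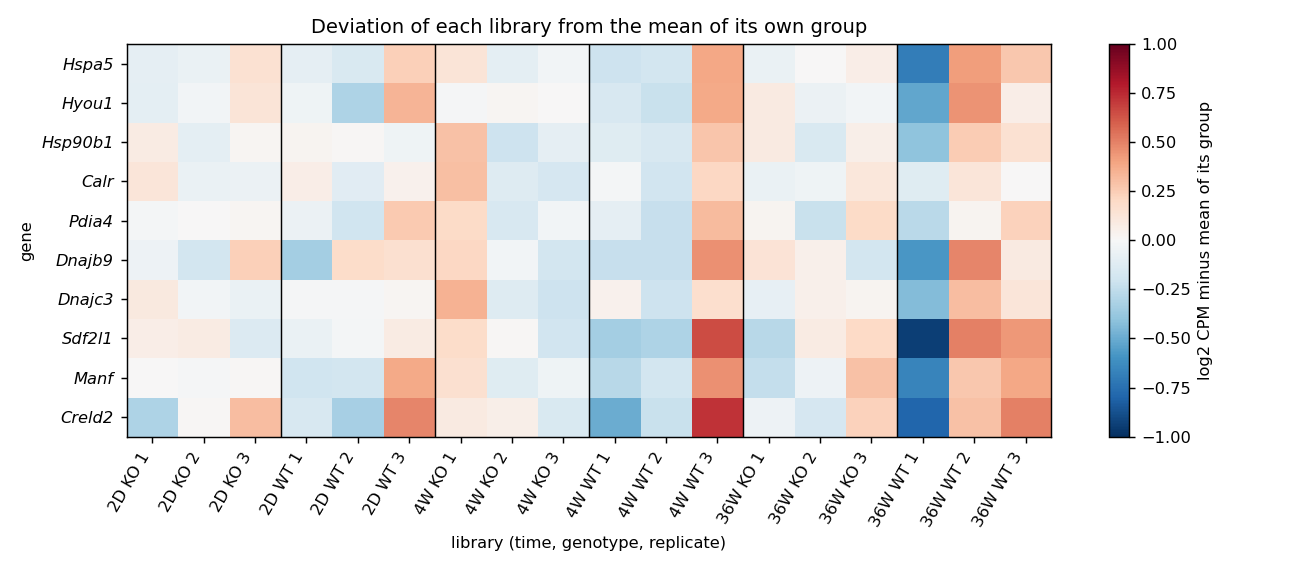
Deviation of each library (x axis) from the mean of its own group in log2 CPM (colour, red above and blue below) for each ER chaperone (y axis), with KO left of WT at each time. The first WT library of 36W is blue in all 10 rows, with a mean deviation of -0.54, and the third WT library of 4W is red in all 10, with a mean of 0.40.

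Other genes followed the same pattern. Among 11032 genes with a mean log2 CPM of at least 1, those whose log2 CPM over the 18 libraries was most like the mean of the 10 standardised chaperones were Dnajb11 (r 0.98), another J-domain partner of BiP, and Trabd (0.98). Serp1, Cdk5rap3, Clptm1l and Rpn2, the last a subunit of the oligosaccharyltransferase, each had an r of 0.97. Syvn1, Preb and Ssr3, the last a subunit of the translocon-associated complex, had 0.96, and Pdia3, a disulfide isomerase that works with calreticulin, had 0.95. The r of genes with the members shares libraries, depth and scaling as above.

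The rest of the ER machinery at 4W was read from lists of genes, each given by its counts and its median beside 4.13% called lower, 1.95% called higher and a median of 0.01 over all genes tested. Of 22 other ER chaperones and cofactors 5 fell in KO, with a median of -0.19, among them Creld1 (-1.29), a paralog of Creld2, Dnajb11 (-0.95), Hspa13 (-0.76) and Uggt1 (-0.71), the folding sensor of glycoproteins. Canx, the membrane-bound relative of calreticulin, had 424, 347 and 379.8 CPM in KO, against 492, 445 and 499.5 CPM in WT (-0.33, edgeR adjusted p 0.121). Of 18 disulfide isomerases and oxidases 3 fell, Ero1lb (-1.30), which reoxidises the isomerases, Txndc11 (-1.07) and Txndc5 (-0.61), with a median of -0.21. The list of the 10 chaperones had the lowest median of these 3 lists, and the others held many members near 0. The 10 genes and the lists were chosen with earlier results of these data known, so this order is a description and no test.

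ER-associated degradation removes chains that fail to fold, and 7 of its 21 tested genes fell in KO at 4W, with a median of -0.31. Syvn1 had 58.1, 61.8 and 56 CPM in KO, against 175, 198 and 265 CPM in WT (-1.87, edgeR adjusted p 0.000446). Herpud1 had 187, 149.7 and 179 CPM in KO, against 376, 322 and 443 CPM in WT (-1.15, edgeR adjusted p 0.00285). Ube2g2 (-0.83) and Ubxn4 (-0.72) followed. Of 24 genes of the translocon and of N-glycosylation 8 fell, all 24 were below 0 and the median was -0.38, with Srprb (-0.99), Ostc (-0.81), Sec61a1 (-0.73) and Ssr1 (-0.64) called. Of 20 genes of transport from ER to Golgi 7 fell, with a median of -0.39, among them the COPII coat genes Sec24d (-1.20), Sec23b (-1.02) and Sec31a (-0.62) and the cargo receptor Lman1 (-0.83).

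Of 12 sensors and transcription factors of the unfolded protein response 3 fell. Xbp1, the factor spliced by the product of Ern1, had 196, 266 and 151 CPM in KO, against 328, 365 and 389 CPM in WT (-0.83, edgeR adjusted p 0.031). Ddit3, the stress factor CHOP, had 6.73, 5.85 and 4.82 CPM in KO, against 8.9, 10.4 and 12 CPM in WT (-0.86, edgeR adjusted p 0.0415), and Creb3l2 gave -0.82 (0.00682). The sensors Ern1 (-0.24, edgeR adjusted p 0.24), Atf6 (-0.27, 0.239) and Eif2ak3 (0.09, 0.738) and the factor Atf4 (0.00, 0.991) were not called. Gene counts do not separate spliced from unspliced Xbp1. Of 16 targets of the integrated stress response, the arm that runs through Atf4, Asns (-2.03) fell and Vldlr (1.58) and Gdf15 (1.48) rose, with a median of -0.20.

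Chaperones outside the ER fell too. Of 17 cytosolic and mitochondrial chaperones 9 fell in KO at 4W, all 17 were below 0 and the median was -0.90. Hsph1, the exchange factor of cytosolic Hsp70, had 28.4, 31.3 and 23.8 CPM in KO, against 103, 111 and 138 CPM in WT (-2.08, edgeR adjusted p 0.000187). Hspa1b (-2.24), the inducible Hsp70, Hspa8 (-1.19) and Dnaja1 (-1.14) also fell. The secreted proteins that pass through the ER had values mostly above 0. None of 15 plasma protein genes was called by edgeR, 6 had an unadjusted p under 0.05, 13 were above 0 and their median was 0.21, and Alb had 108428, 87638 and 113639 CPM in KO, against 70342, 86189 and 100547 CPM in WT.

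**Figure D4:**
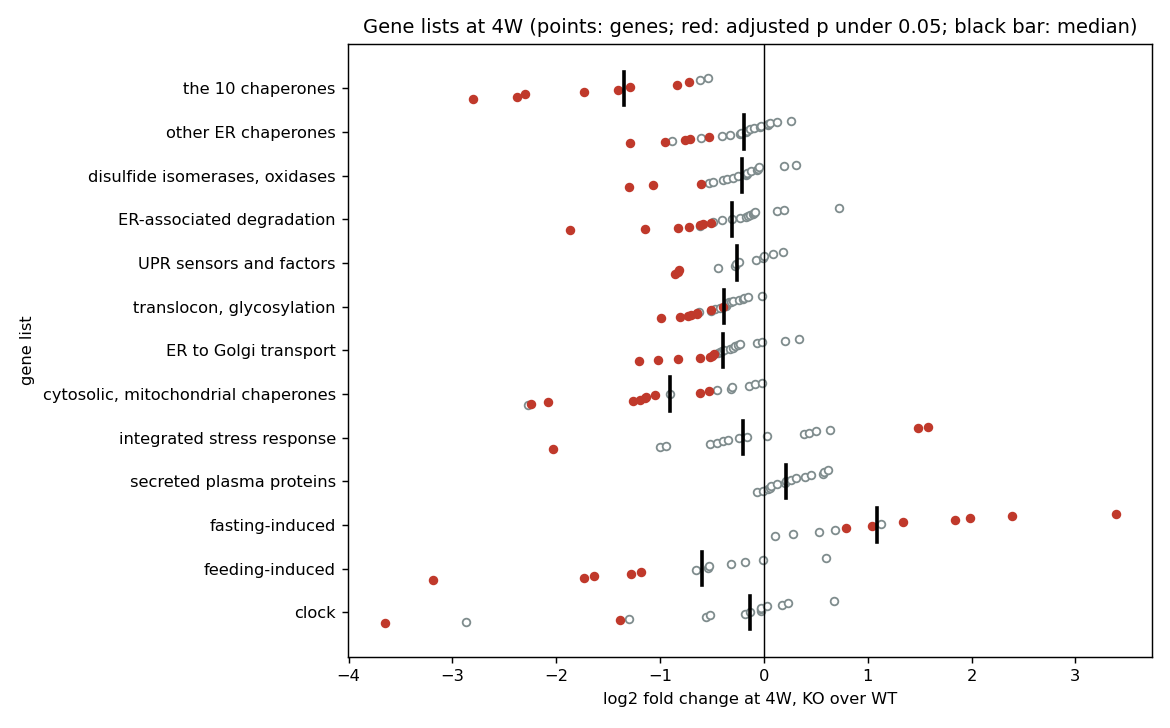
Log2 fold change at 4W, KO over WT (x axis), of each gene of 13 lists (y axis), with red points for an edgeR adjusted p under 0.05, open grey points for the rest and a black bar at the median. The 10 chaperones have a median of -1.35, the cytosolic and mitochondrial chaperones -0.90 and the plasma proteins 0.21.

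Genes that follow feeding moved at 4W as well. Of 12 genes induced by fasting 7 rose in KO, with a median of 1.08, and all 12 were above 0. Igfbp1 had 302, 209 and 459 CPM in KO, against 57.1, 14.5 and 20.2 CPM in WT (3.39, edgeR adjusted p 0.00582), and G6pc (1.98), Cyp4a14 (1.84) and Cyp4a10 (1.34) were also called. Of 12 genes listed as induced by feeding 5 fell, 11 were below 0 and the median was -0.60. Thrsp had 81.9, 30.6 and 41.3 CPM in KO, against 194, 599.8 and 603 CPM in WT (-3.19, edgeR adjusted p 0.00631). Lpin1 (-1.73), Me1 (-1.28) and Fasn (-1.18) were also called. Scd1 went the other way, with 11987, 6194 and 8566 CPM in KO, against 6005, 5944 and 5603 CPM in WT. Lpin1 is a less certain member of the list. In WT at 2D it had 251, 372 and 66.6 CPM. Tat, of the fasting list, had 2138, 3116 and 929 CPM there, in the same order. Of 15 clock genes Bhlhe41 (-3.65) and Per2 (-1.39) fell. The labels used here give neither feeding state nor hour of collection, and the part of either in the chaperone values was not tested.

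Markers of cell types were summed per library at 4W. Hepatocyte markers, 8 genes, summed to 111398 to 138157 CPM in KO and 94542 to 125068 CPM in WT, with Tat called higher (0.79) and Hnf4a lower (-0.58). Most of each sum was Alb, itself a plasma protein gene, and Tat is also in the list of genes induced by fasting. Plasma and B cell markers, which mark cells rich in ER, summed to 22.5 to 45.4 CPM in KO and 17 to 42.3 CPM in WT, with Tnfrsf17 at 0 in both groups and none of 8 tested called by edgeR (2 at an unadjusted p under 0.05). Macrophage markers summed to 343 to 1009 CPM in KO and 496 to 560.2 CPM in WT, with Clec4f (-0.71) lower in KO, and endothelial markers to 259 to 434 CPM in KO and 288 to 302 CPM in WT, with Kdr (0.59) higher. Stellate and fibroblast markers summed to 377 to 1589 CPM in KO and 489.8 to 627 CPM in WT, and cholangiocyte markers to 131 to 171 CPM in KO and 105 to 124 CPM in WT, none called by edgeR (1 and 0 at an unadjusted p under 0.05). Pancreatic acinar markers, another ER-rich source, summed to 15.3 to 21.4 CPM in KO and 10.9 to 16.6 CPM in WT, with 6 of 8 at 0 in each group. Nearly all of that sum was Cela1, with 21.4, 15.3 and 17.3 CPM in KO, against 16.5, 10.9 and 15.8 CPM in WT. By direction, 8 of 8 plasma and B cell markers tested were above 0, with a median log2 fold change of 0.88. Stellate and fibroblast markers had 7 of 8 above 0 (median 0.64) and cholangiocyte markers 5 of 5 (0.38). Endothelial markers had 6 of 8 above 0 (0.19), macrophage markers 7 of 9 (0.16) and hepatocyte markers 5 of 8 (0.07). The median over all genes tested was 0.01. The part of cell composition in the chaperone values was not tested.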

How the data were processed

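The authors deposited unnormalised counts of reads for each gene in 18 libraries, with gene positions and lengths. The submitters' processing notes name STAR 2.5, HTSeq, DESeq2 and mm10 but not their roles, settings or annotation release. The strand setting is not given in the sources used here. Of the gene identifiers 34490 were found in GENCODE M21. Sequences came from RefSeq promoters of build GRCm38.p6, matched by symbol.

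KO was compared with WT within each time (6 libraries) by the quasi-likelihood test of edgeR 4.0.16 after TMM scaling and filterByExpr, and times and changes of the KO effect in one fit of 18 libraries with 6 group means, with Benjamini-Hochberg adjustment over all genes tested and a threshold of 0.05 for adjusted p. Standard errors were derived from the log2 fold change and its F value. Log2 CPM used a prior count of 2. CPM per kb used the gene length of the table, which did not exceed the union of GENCODE exons in 97.5% of genes. Scripts were tested on simulated data.

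The 10 genes and all lists were chosen with earlier results of these data known. All 10 are named, and of each other list up to 4 called genes with the smallest p-values at 4W. Beyond that rule a list gene may be given by value (Canx, Alb, Ern1, Atf6, Eif2ak3 and Atf4), chosen after its values were seen. Likeness took the 10 highest r among named genes. Fam8a1 of the degradation list was not found by name. An exact permutation of 3 against 3 libraries cannot go below a p of 0.1, so the models across all genes were used. Floors of 3 counts cover counting error only. Alternatives were DESeq2 1.42.0, limma-voom (limma 3.58.1), DESeq2 size factors or library size alone in edgeR, no low-count filter, CPM of 1 or more in 3 libraries, all 18 libraries in the fit, replicate number as a block, and leaving out each library.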

Additional observations from a re-analysis of the deposited data

Results flagged for a closer look

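The KO effect differed between times in 12 cases by the test of the difference itself (edgeR quasi-likelihood contrast in the fit of 18 libraries, adjusted p under 0.05). From 4W minus 2D, on the log2 scale, these were Creld2 (-3.35), Hyou1 (-2.77), Manf (-2.66), Hspa5 (-2.28), Dnajb9 (-1.56), Pdia4 (-1.42) and Hsp90b1 (-1.09), all lower at 4W. From 36W minus 4W they were Creld2 (3.16), Manf (2.84), Hyou1 (2.27), Sdf2l1 (2.18) and Hspa5 (2.09), all higher at 36W. The 2 sets of differences share the 6 libraries of 4W, so the second does not add independent support to the first. Dixon's test for single outlying samples was not applied, as it takes groups of at least 4.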

How the results depend on the processing

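The count of called chaperones at 4W was 8 to 10 under the 8 other settings and 7 to 10 when a library was left out, and in WT at 4W against 2D it was 10 throughout. At 36W, and for 36W minus 2D, it was 0 throughout. DESeq2 called 3 at 2D, 9 for 36W minus 4W and 2 for WT at 36W against 4W, where limma-voom, library size alone and the CPM filter called 1 each. Leaving out 1 library gave 0 to 5 at 2D, 5 to 8 for 4W minus 2D, 3 to 6 for 36W minus 4W, 0 to 2 for KO at 4W against 2D, 8 to 9 for KO at 36W against 4W and 0 to 1 for WT at 36W against 4W. The causes were not tested.

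Of 1112 values of single genes 1009 kept direction and side of the threshold, 60 lost a call, 31 gained one and 12 changed sign. The sign changes were uncalled 36W values. Hyou1 turned to 0.04 (limma-voom), 0.07 (library size alone), 0.00 (CPM filter) and 0.05 (replicate block), and ranged from -0.22 to 0.24 without 1 library. Dnajb9 turned to 0.01 with library size alone and ranged from -0.31 to 0.20 without 1 library, and Hsp90b1 ranged from -0.05 to 0.25. With library size alone Hyou1 averaged 75.2 CPM in KO at 4W, the 1 of 20 mean levels at 4W that moved by more than its SD, and the median of all genes shifted by 0.12 for 36W minus 4W and by 0.20 for 36W minus 2D.

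No clear pairing by replicate number was seen. Deviations of same-numbered KO and WT libraries of a time correlated at -0.07 to 0.23, and those of different-numbered libraries at -0.21 to 0.21. Such values cannot exclude a pairing. With replicate number as a block the called chaperones numbered 0 at 2D, 9 at 4W, 0 at 36W, 5 for 4W minus 2D and 5 for 36W minus 4W.

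Over all genes the counts called varied more than 1.5-fold, from 1 to 1853 at 2D (23 in the reported fit), 0 to 401 at 36W (5), 360 to 1297 at 4W (814), 82 to 628 for 4W minus 2D (199), 9 to 568 for 36W minus 4W (84), 104 to 1125 for 36W minus 2D (453) and 2178 to 4108 for KO at 4W against 2D (3605). The lowest chaperone level was 12.2 CPM, above the floor of 3 counts in every library, and groups of 3 libraries limit what the tests can call.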

Other observations

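The wider ER machinery differed between times within each genotype (edgeR, adjusted p under 0.05). At 4W against 2D, 13.5% of all genes tested were called higher and 10.8% lower in KO, and 19.1% higher in WT. Of 21 genes of ER-associated degradation 8 rose and 1 fell in KO (median log2 fold change 0.15), and 15 rose in WT (0.49). Of 24 genes of the translocon and N-glycosylation 3 rose and 4 fell in KO (-0.10), a share of rises near that of all genes, and 12 rose in WT (0.42). At 36W against 4W, 14.5% of all genes were called higher in KO and 11.9% in WT. The translocon and N-glycosylation genes rose for 22 of 24 and fell for 1 in KO (0.92), and rose for 5 in WT (0.27). Of 20 genes of transport from ER to Golgi 10 rose in KO (0.54), and 3 rose and 1 fell in WT (0.08).

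The difference between the genotypes over each interval is the change of the KO effect. From 4W minus 2D it was called lower for 1 of 24 translocon, 3 of 21 degradation and 5 of 20 ER to Golgi genes, where 1.01% of all genes were called lower. From 36W minus 4W it was called higher for 2, 1 and 1 of them, where 0.282% of all genes were called higher.

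Cytosolic and mitochondrial chaperones had 16 of 17 log2 fold changes, KO over WT, below 0 at 36W, with a median of -0.35, and 0 were called by edgeR (6 at an unadjusted p under 0.05). Genes listed as induced by feeding had 12 of 12 values below 0 at 36W, with a median of -1.12, and 0 called (6 at an unadjusted p under 0.05). The first WT library was the highest WT library for each of these feeding genes. Thrsp had 25.1, 34.1 and 38 CPM in KO, against 398, 25.9 and 193 CPM in WT, so its second WT library lay within the KO range. Over all genes tested at 36W 0.037% were called and 12% had an unadjusted p under 0.05. Both lists thus stood below 0 at a time when the 10 ER chaperones had a median of 0.15.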
